A study of Homo sapiens with 34 samples.

Results

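The genes described here are the protein-coding genes of human chromosome 19 named ZNF and a number in the RNA-seq table, 218 of 28071 genes listed. The rule used gene type, chromosome and symbol and no measured value, but it was set with earlier results of these data known. Among the 1240 protein-coding genes of chromosome 19 in the table they leave 1022 others, and 239 genes with the same kind of name lie on other chromosomes. The study measured LNCaP, an established prostate cancer cell line that carries an androgen-responsive luminal programme. Androgen-dependent cells (AD) grew in RPMI1640 medium, and androgen-independent cells (AI) grew in the same medium with charcoal-stripped serum, which lacks steroids. RNA-seq of polyadenylated RNA covered 6 groups of 2 libraries each, namely AD and AI cells that were untreated, transfected with mock siRNA (labelled NC), or transfected with siRNA against EZH2 (siEZH2) and collected 24 h later. EZH2, a subunit of the Polycomb complex PRC2, writes the repressive histone mark H3K27me3. RNA immunoprecipitation (RIP) of crosslinked AD and AI cells used either IgG or an EZH2 antibody, with 2 libraries for each combination, and peak lists came from chromatin immunoprecipitation (ChIP) of H3K27me3 and EZH2. The labels' treatment text names only LNCaP/abl as the transfected cells, although siRNA names stand in AD titles too, and groups were taken from the titles. Nothing says that replicates were separate cultures, so p-values measure only the spread between these libraries, which may be technical.

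Zinc finger genes of this kind encode DNA-binding proteins with tandem zinc fingers, and chromosome 19 holds large arrays of them that arose by gene duplication. Many carry a KRAB domain, which binds the corepressor TRIM28 (KAP1). TRIM28 brings in the histone methyltransferase SETDB1 and HP1 proteins, and the complex silences transposable elements and some genes through H3K9me3. The zinc finger genes themselves are known to be covered by H3K9me3 over their finger exons in many cell types, and ZNF274 is the member known for binding there and recruiting SETDB1. Because members are close copies of one another, reads that fit several of them may be shared or lost in counting, and the counting method is not given in the sources used here.

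Promoters are shown first for 5 members, chosen after their values were seen, that show both directions of the difference between AI and AD cells after transfection, with ZNF274, ZNF416 and ZNF256 lower in AI and ZNF296 and ZNF586 higher. Each is the 250 bases before the outermost start listed by RefSeq (GRCh38.p14), on the gene's own strand, 5′ to 3′. Capitals mark CCGGAAG or its reverse complement CTTCCGG, the core of sites for ETS factors. The sequences of ZNF274 (chr19:58182811-58183060, plus strand) and ZNF256 (chr19:57947707-57947956, minus strand) hold the motif, that of ZNF256 as 2 overlapping copies. In ZNF274 the motif begins 83 bases before the start, in ZNF256 it begins 149 and 146 bases before it, and in ZNF586 (chr19:57769426-57769675, plus strand) 32 bases before it. ZNF416 (chr19:57578912-57579161, minus strand) and ZNF296 (chr19:45076479-45076728, minus strand) have no match in this window.
ZNF274: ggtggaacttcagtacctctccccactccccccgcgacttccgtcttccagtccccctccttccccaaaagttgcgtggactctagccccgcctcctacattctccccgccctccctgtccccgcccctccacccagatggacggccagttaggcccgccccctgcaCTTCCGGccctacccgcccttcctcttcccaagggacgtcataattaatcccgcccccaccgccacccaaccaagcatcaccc
ZNF416: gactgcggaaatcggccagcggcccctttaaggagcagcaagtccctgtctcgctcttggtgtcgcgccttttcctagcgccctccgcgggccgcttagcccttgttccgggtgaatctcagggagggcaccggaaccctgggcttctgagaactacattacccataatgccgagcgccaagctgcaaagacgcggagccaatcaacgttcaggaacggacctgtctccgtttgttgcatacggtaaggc
ZNF256: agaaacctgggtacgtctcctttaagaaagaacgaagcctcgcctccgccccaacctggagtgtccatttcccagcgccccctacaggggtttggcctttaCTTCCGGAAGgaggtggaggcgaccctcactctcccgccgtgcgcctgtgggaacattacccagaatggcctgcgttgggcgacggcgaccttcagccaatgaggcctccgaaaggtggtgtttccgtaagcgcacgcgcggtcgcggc
ZNF296: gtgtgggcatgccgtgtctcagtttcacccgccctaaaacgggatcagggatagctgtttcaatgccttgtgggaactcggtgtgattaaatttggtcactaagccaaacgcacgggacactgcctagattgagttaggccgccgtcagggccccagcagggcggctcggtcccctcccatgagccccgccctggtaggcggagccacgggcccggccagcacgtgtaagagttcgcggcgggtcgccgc
ZNF586: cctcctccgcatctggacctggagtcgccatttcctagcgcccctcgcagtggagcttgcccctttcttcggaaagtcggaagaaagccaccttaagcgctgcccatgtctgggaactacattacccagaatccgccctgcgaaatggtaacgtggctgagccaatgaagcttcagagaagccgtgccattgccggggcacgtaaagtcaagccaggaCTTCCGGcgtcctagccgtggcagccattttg

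Among 192 members with a listed promoter, 61 (31.8%) held CCGGAAG on either strand. The share was 26.4% for zinc finger genes of other chromosomes, 13.2% for all protein-coding genes of the table and 8.78% for all RefSeq promoters of the same length. AAGATGGC, the core of the YY1 site, was present in 4.69% of members and 1.47% of protein-coding genes. TATAAA was present in 2.08% of members against 7.44%. The median number of CG dinucleotides was 16 in the members and 19 in all protein-coding genes.

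The deposited tables give RPKM, in which reads are divided by gene length and by library size. Depth, estimated from the steps between low values, was 17.4 to 57.8 M reads (M, mega) in untreated libraries and 7.54 to 12.8 M in transfected ones. At the lowest RNA-seq depth 1 read on a transcript of 4000 bases is worth 0.0331 RPKM, so values below about 0.1 RPKM rest on very few reads. Depth was 4.61 to 8.16 M in EZH2 RIP, and only 0.0814 to 1.85 M in IgG. Members correlated between RNA-seq replicates at 0.967 to 0.982. EZH2, the targeted gene, stood at 5.21 and 6.94 RPKM in untreated AD cells, 10.11 and 12.62 in untreated AI cells, 10.95 and 12.48 in mock AD, and 11.52 and 10.73 in AD siEZH2. In AI cells it was 7.07 and 5.44 after mock siRNA and 3.6 and 4.33 after siEZH2. Its change after siEZH2 did not pass the test in AD (log2 change -0.07, limma adjusted p = 1) or AI (-0.59, limma adjusted p = 0.126). Luminal markers such as KLK3 (1443 to 4262 RPKM as group means) and HOXB13 were present in all groups, while PTPRC, CD3E and TP63 were at 0.015 RPKM or less. The highest group means among markers of other cells were 4.15 RPKM for KRT14 and 3.41 for VWF, both in untreated AD, and their part in the results was not tested.

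The members were expressed at low levels and as a group fell to their lowest in transfected AI cells. The median over all 218 was 0.72 and 0.87 RPKM in the untreated AD libraries, 1.02 and 0.94 in those of AI, 1.025 and 1.04 in mock AD, and 0.94 and 0.935 in AD siEZH2. In AI cells it was 0.335 and 0.39 after mock siRNA and 0.245 and 0.26 after siEZH2, so all 4 transfected AI libraries lay below the other 8. The number of members at 1 RPKM or more was 90 to 113 in those 8 libraries and 55 to 62 in the 4 transfected AI libraries. All genes moved the same way, with 10642 to 11429 of 28071 at 1 RPKM or more in the 8 libraries and 9586 to 9873 in the 4, as did the ZNF genes of other chromosomes, with 136 to 154 of 239 against 102 to 120. Within AI cells the summed level of the members did not follow, because a few abundant members carry much of it. It was 364.8 and 378 RPKM in AI mock, 399.4 and 393.2 in AI siEZH2, and 382.8 and 353.1 in untreated AI. In AD cells the sum was 545.3 and 536 RPKM after mock siRNA, 548.5 and 546.5 after siEZH2, and 391.2 and 392.9 untreated. After transfection it was thus lower in AI than in AD. A lower level in bulk RNA does not tell fewer expressing cells from less RNA per cell.

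**Figure D1:**
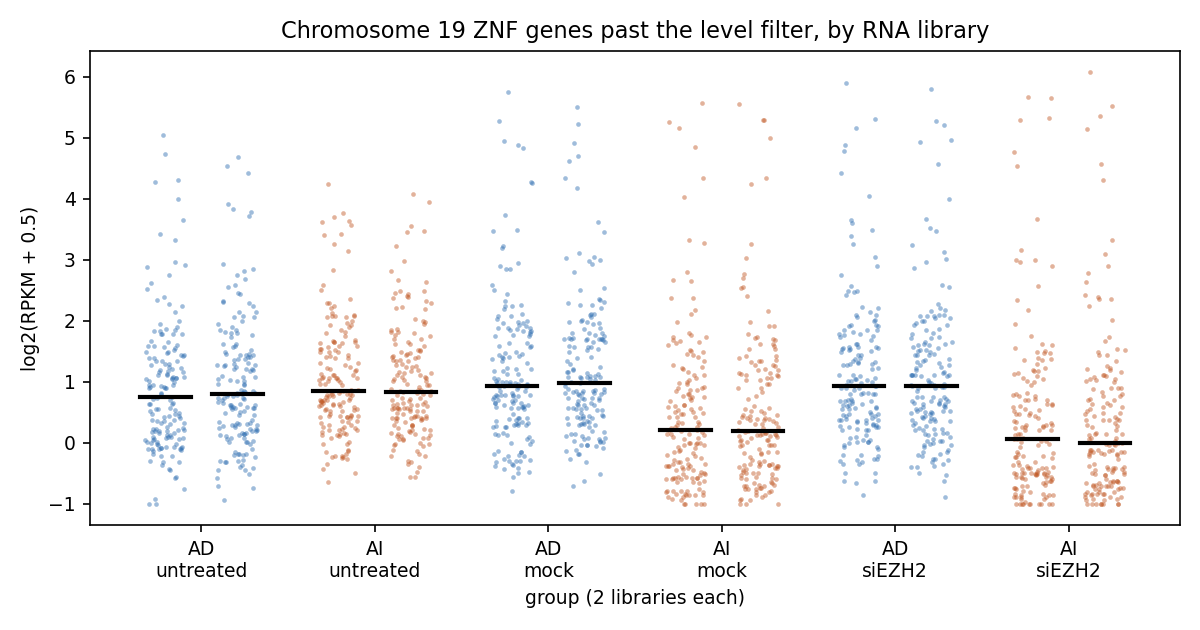
Levels of the 165 tested zinc finger genes of chromosome 19 in each of the 12 RNA-seq libraries, as log2(RPKM + 0.5); each point is 1 gene and the black line is the median. The 4 transfected AI libraries have lower medians than the other 8.

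The most abundant members lay mostly in the last zinc finger array of the chromosome. ZNF787 led with a mean of 39.7 RPKM over the 12 libraries, followed by ZNF358 (31.2), ZNF581 (27.6), ZNF524 (26.4), ZNF444 (23.9), a SCAN domain protein, and ZNF580. ZNF787 was at 18.79 and 13.36 RPKM in AD and 11.33 and 8.88 in AI when untreated, 53.64 and 44.96 in mock AD, and 46.99 and 46.59 in mock AI. All its transfected libraries were above all untreated ones, and neighbours in this order overlap in their ranges. ZNF580 varied least of the 6, with group means of 14.1 to 22.1 RPKM, and its span overlaps that of ZNF581, so their reads may be shared.

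Tests used the 165 members with at least 0.5 RPKM in 2 or more libraries, and 53 were not tested. A member is called where limma on log2(RPKM + 0.5) gave an adjusted p under 0.05 over all 14227 genes tested. The share of all genes called is given for this setting only. Counts under other scalings or with libraries left out are those of the members alone and do not set them against all genes. Fold changes are on that scale, which understates changes of low values.

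In untreated cells the members differed little as a group, with a minority higher or lower in AI. Of the 165, 24 were higher and 13 lower in AI than in AD, against 34.6% of all genes called in this comparison, 22.2% higher and 12.4% lower. The median difference was 0.06 for members and 0.13 for all genes. With TMM scaling the split became 12 higher and 19 lower, and with quantile normalization 16 and 19, so the balance of directions depends on the scaling. When only the 4 untreated libraries entered the fit, 8 were higher and 1 lower. Without AD replicate 1 the counts were 11 and 8, without AI replicate 1 12 were higher, and without AI replicate 2 the counts were 13 and 5. The other protein-coding genes of chromosome 19 leaned lower in AI, with 34 of 722 higher and 257 lower, and zinc finger genes of other chromosomes had 36 of 194 higher and 16 lower.

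ZNF415, a nuclear zinc finger protein, was at 0.75 and 0.91 RPKM in AD and 2.63 and 3.46 in AI before transfection. The groups did not overlap, and the difference was 1.41 ± 0.208 (log2, SE, n = 2 per group, limma adjusted p = 0.00088). ZNF613 stood at 1.58 and 1.82 RPKM in AD and at 5.17 and 4.2 in AI, a difference of 1.23 (SE 0.158, limma adjusted p = 0.000392). ZNF274, the member that binds zinc finger genes, was at 7.03 and 5.48 RPKM in AD and 11.92 and 10.61 in AI. Its difference of 0.81 (SE 0.187, limma adjusted p = 0.00888) missed the threshold with only untreated libraries in the fit (limma adjusted p = 0.0577). ZNF737, named after its values were seen, differed most, from 0.17 and 0.23 RPKM to 1.49 and 1.71 (1.58, SE 0.166, limma adjusted p = 0.000131). In the other direction ZNF444 fell from 26.11 and 20.9 RPKM in AD to 13.12 and 11.19 in AI (-0.92, SE 0.139, limma adjusted p = 0.00101). ZNF160 was lower by the same measure (-0.76, limma adjusted p = 0.00622), but missed the threshold with only untreated libraries in the fit. ZNF581 was lower in AI (-1.17, limma adjusted p = 0.0109), and without AD replicate 1 its difference was -0.92 and missed the threshold. ZNF610, ZNF614, ZNF30, ZNF91 and ZNF57, higher in AI by 0.65 to 0.85, each lost the call without at least 1 library.

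After mock transfection most tested members were lower in AI than in AD. Of the 165, 103 were lower and 5 higher, against 55.7% of all genes called, 43.5% lower and 12.2% higher. The median difference was -0.69 for members and -0.41 for all genes. TMM scaling moved the median of all genes to -0.08 and that of members to -0.43, and gave 70 lower and 9 higher. Quantile normalization moved these medians to 0.02 and -0.09 and gave 35 lower and 21 higher, so much of the count depends on the scaling while the members' median stayed below that of all genes. Zinc finger genes of other chromosomes had 104 of 194 lower and 12 higher with a median of -0.57. The other protein-coding genes of chromosome 19 had 348 of 722 lower and 78 higher with a median of -0.45. The 5 higher members became 3 without AD mock replicate 1 and 2 without AI mock replicate 2, and leaving out any of the 4 libraries gave 77 to 89 lower members.

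ZNF274 was the member with the largest fall among those with a mean of at least 1 RPKM and separate groups. It stood at 18.61 and 17.66 RPKM in mock AD and at 2.61 and 2.58 in mock AI, a difference of -2.59 (SE 0.187, limma adjusted p = 4.305e-06). ZNF416 was at 3.26 and 4.29 RPKM in mock AD and at 0.22 and 0.4 in mock AI (-2.40, SE 0.226, limma adjusted p = 2.024e-05). ZNF256, a KRAB protein known to bind TRIM28, was at 3.46 and 4.13 RPKM in mock AD and at 0.36 and 0.47 in mock AI (-2.23). These 3 lie in the same array near the end of the long arm, and in each the AI libraries were well below the AD libraries. ZNF302 was at 2.16 and 2.51 RPKM in mock AD and at 0.27 and 0.21 in mock AI (-1.94, SE 0.203, limma adjusted p = 3.785e-05). ZNF784 (-2.19), ZNF329 (-1.97), ZNF616 (-1.88) and ZNF837 (-1.84) complete the 8 largest falls.

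The 5 members higher in mock AI were ZNF296, ZNF714, ZNF586, ZNF431 and ZNF430, the last 2 named after their values were seen. ZNF296, a transcription factor studied in pluripotent cells, was at 2.28 and 2.77 RPKM in mock AD and 9.47 and 9.07 in mock AI. Its difference was 1.70 (SE 0.160, limma adjusted p = 2.017e-05), and no AI library overlapped an AD library. ZNF586 rose from 3.2 and 2.91 to 4.66 and 4.82 RPKM (0.56, SE 0.156, limma adjusted p = 0.0121), a call lost without AD mock replicate 2 (0.50) or AI mock replicate 2 (0.54). ZNF714 was higher by 0.77, and by 0.65 with the call lost without AI mock replicate 2. ZNF714, ZNF430 and ZNF431 belong to the array of chr19:19668153-24129968.

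**Figure D2:**
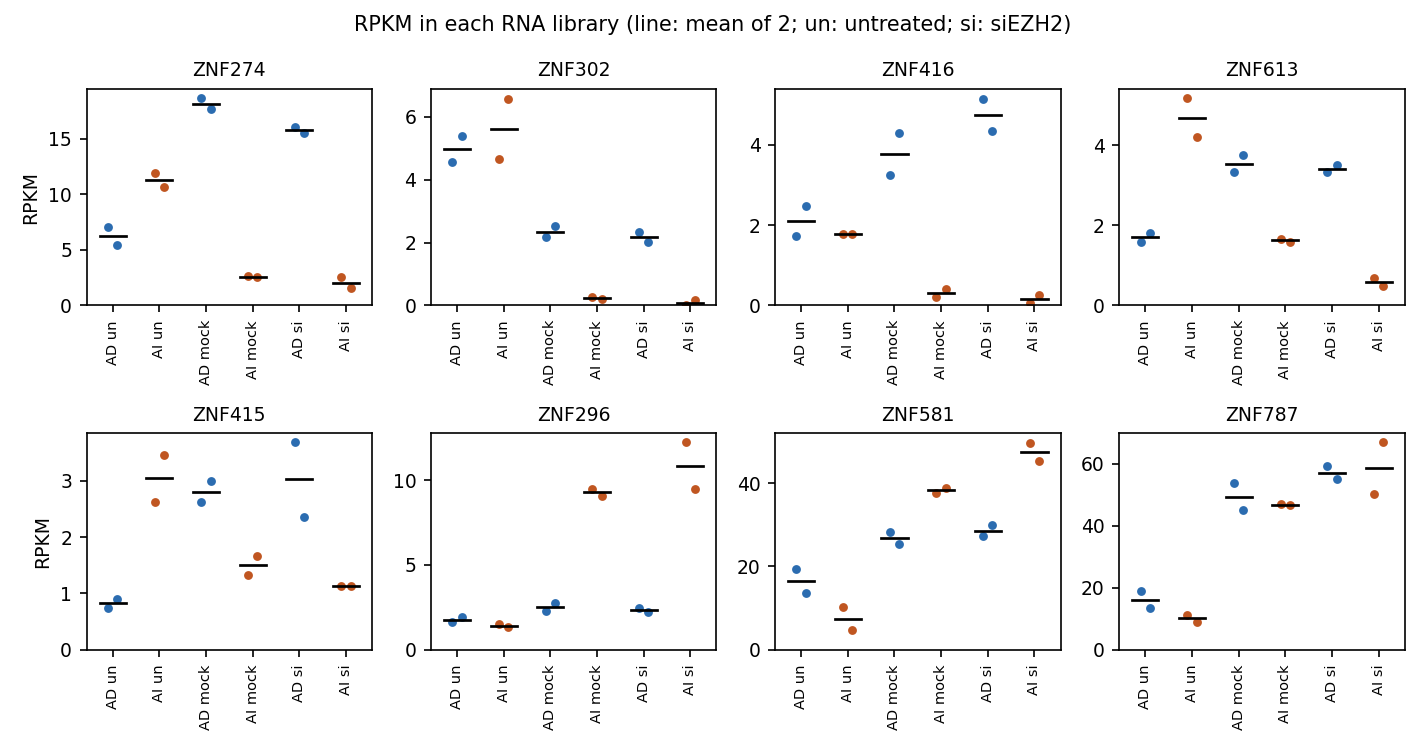
RPKM of 8 members in each of the 12 RNA-seq libraries, 1 panel a gene with its own axis from 0; points are single libraries of the 6 groups. ZNF274, ZNF302 and ZNF416 are lowest in the 4 transfected AI libraries, where ZNF296 is highest.

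The siEZH2 libraries of the 2 lines, a comparison added after the data were seen and sharing no library with the mock one, gave a like count. Of the 165, 108 were lower and 4 higher in AI, against 57.7% of all genes called, 47.1% lower and 10.6% higher. The median was -0.80 for members and -0.48 for all genes. TMM scaling gave 75 lower and 11 higher, and quantile normalization 33 and 22. ZNF416 was at 5.14 and 4.35 RPKM in AD siEZH2 and at 0.05 and 0.26 in AI siEZH2 (-3.02, SE 0.226, limma adjusted p = 5.327e-06). ZNF274 was at 16.02 and 15.48 RPKM in AD and 2.57 and 1.55 in AI (-2.70, limma adjusted p = 3.5e-06), so both AI libraries were again far below. ZNF296 was at 2.48 and 2.21 RPKM in AD and at 12.21 and 9.49 in AI (1.99, limma adjusted p = 7.92e-06). ZNF586, ZNF431 and ZNF460 were the other higher members, ZNF460 and ZNF431 being named after their values were seen. Between the mock and siEZH2 comparisons 90 members were called lower in both, 3 higher in both (ZNF296, ZNF431 and ZNF586) and none in opposite directions. No such joint count was made over all genes, of which 43.5% were lower in mock AI and 47.1% in AI siEZH2.

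The difference between AI and AD therefore did not have 1 direction in untreated and transfected cells. Among members called in both the untreated and the mock comparison, which share no library, 20 were higher in untreated AI and lower in mock AI. Only ZNF586 was higher in both, 5 were lower in both (ZNF444, ZNF473, ZNF548, ZNF579 and ZNF784), and none was lower and then higher. Against siEZH2 libraries the same counts were 21, 1, 7 and 0. These joint counts were not made over all genes, of which 22.2% were higher in untreated AI and 43.5% lower in mock AI. Whether members turn more often than other genes is therefore not shown by them. The test of the change itself, the mock difference minus the untreated difference, called 80 members lower and 4 higher, against 50.2% of all genes called, 41.2% lower and 8.99% higher. TMM scaling gave 47 and 15, and quantile normalization 31 and 20. The 4 higher members were ZNF296, ZNF581, ZNF558 and ZNF160, the latter 2 as named after their values were seen, and they became 2 without AD mock replicate 1 or AI mock replicate 1. Over the 165 members the untreated and mock differences had a Spearman correlation of -0.13, as a description of genes measured in libraries of differing depth.

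ZNF274 changed most, by -3.40 (SE 0.264, limma adjusted p = 1.357e-05) between the untreated and the mock difference. ZNF613 was above AD in untreated AI and below it after mock siRNA, where it stood at 3.32 and 3.75 RPKM in AD and at 1.67 and 1.59 in AI (-0.92, limma adjusted p = 0.000818). ZNF415 was at 2.62 and 3.0 RPKM in mock AD and at 1.33 and 1.67 in mock AI (-0.73, limma adjusted p = 0.0137). ZNF737 was at 0.57 and 0.61 RPKM in mock AD and 0.14 and 0.2 in mock AI (-0.70, limma adjusted p = 0.00526). Untreated, ZNF844 was at 0.24 and 0.26 RPKM in AD and at 1.27 and 1.22 in AI. After mock siRNA ZNF844 was at 0.52 and 0.47 RPKM in AD and was listed at 0 in both AI libraries. The other members of the 20 were ZNF30, ZNF44, ZNF57, ZNF93, ZNF329, ZNF347, ZNF429, ZNF528, ZNF544, ZNF583, ZNF610, ZNF614, ZNF728, ZNF766 and ZNF773. The 20 had adjusted p-values of 1.357e-05 to 0.00527 in the limma test of the change. They were chosen by opposite calls on the same estimates, so this test adds no separate support for them.

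Mock transfection against untreated cells went in different directions in the lines. These libraries also differ in depth, and transfection and library series cannot be told apart. In AD cells 47 of 165 members were higher after mock siRNA and 7 lower, against 45.4% of all genes called, 37.6% higher and 7.73% lower, with a median of 0.28 for members and 0.35 for all genes. This split did not hold under other scalings: TMM gave 14 higher and 19 lower, quantile normalization 11 and 20, and rescaling without mitochondrially encoded genes 24 and 14. Leaving out 1 library gave 28 and 2 (mock replicate 1), 27 and 4 (untreated replicate 1), 19 higher (mock replicate 2) and 4 lower (untreated replicate 2). ZNF787 rose most (1.60, SE 0.194, limma adjusted p = 0.000185), and ZNF274 rose from the levels given above by 1.47 (limma adjusted p = 0.000237). ZNF121 fell most, from 6.23 and 6.2 to 2.48 and 2.74 RPKM (-1.11, SE 0.148, limma adjusted p = 0.000307).

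In AI cells 83 members were lower after mock siRNA and 14 higher, against 57.1% of all genes called, 35.5% lower and 21.5% higher, with a median of -0.59 for members and -0.20 for all genes. TMM scaling gave 75 lower and 18 higher, and quantile normalization 53 and 28. Leaving out any 1 library left 66 to 75 lower, and 9, 9, 9 and 7 higher without mock replicates 1 and 2 and untreated replicates 1 and 2. ZNF302 fell most, from 4.65 and 6.55 to 0.27 and 0.21 RPKM (-3.03, SE 0.203, limma adjusted p = 2.532e-06). ZNF155 fell from 3.72 and 3.59 to 0.08 and 0.47 RPKM (-2.47), and ZNF320 from 4.23 and 4.1 to 0.4 and 0.52 RPKM (-2.28). ZNF581 and ZNF296 rose by 2.37 and 2.35, ZNF581 from 10.21 and 4.74 to 37.73 and 38.82 RPKM. ZNF787 (2.17) and ZNF524 (2.04) rose as well. ZNF787, ZNF581 and ZNF524 are among the most abundant members by the mean of all 12 libraries, but that mean includes the libraries in which they rose. In untreated AI their means were 10.11, 7.475 and 9.205 RPKM, below that of ZNF358 (16.66).

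siEZH2 against mock siRNA gave few calls, among the members as among all genes. The change of EZH2 RNA itself was not called in either line. Its means after mock siRNA and siEZH2 were 11.71 and 11.12 RPKM in AD, and 6.255 and 3.965 in AI. Loss of EZH2 is thus not shown, and the counts below are not read as a response to it. In AD cells limma called no member, against 0.0141% of all genes, and 8 members (4.85%) had an unadjusted p under 0.05, against 3.82% of all genes. In AI cells limma called 1, ZNF613, as lower and 0 as higher, against 1.46% of all genes, 1.39% lower and 0.0703% higher, and 28 members (17.0%) had an unadjusted p under 0.05, against 18.8% of all genes. ZNF613 was at 1.67 and 1.59 RPKM after mock siRNA and at 0.69 and 0.48 after siEZH2 (-0.98, SE 0.158, limma adjusted p = 0.035). The groups did not overlap, but the call was lost without each of the 4 libraries in turn (-0.95 and -1.01 without mock replicates 1 and 2, -1.12 and -0.84 without siEZH2 replicates 1 and 2) and under both other scalings. In AD cells ZNF613 was at 3.32 and 3.75 RPKM after mock siRNA and 3.32 and 3.51 after siEZH2. The difference between the lines in this effect was called by limma for 0 members and 0% of all genes, with an unadjusted p under 0.05 for 8 members (4.85%) and 6.86% of all genes.

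Along chromosome 19 the members form 16 groups when spans at most 1000000 bases apart are joined. The largest, chr19:55476617-58489533 (GRCh38), holds 52 members from ZNF628 to ZNF446, of which 47 were tested. After mock siRNA 34 of these were lower in AI and 1 higher, with a median of -0.96, while in untreated cells 6 were higher and 7 lower. The array of chr19:51571283-53580269 holds 33 members from ZNF175 to ZNF331. Of its 26 tested, 7 were higher and 1 lower in untreated AI, and 16 were lower and none higher after mock siRNA. The array of chr19:19668153-24129968, which holds ZNF91 and ZNF93, has 32 members. Of its 20 tested, 5 were higher and none lower in untreated AI, and 10 were lower and 3 higher after mock siRNA. In the array of chr19:36182060-37779586, with 25 members, 4 of 13 tested were lower and none higher after mock siRNA. The array of chr19:43530835-45076478 ends with ZNF296, its 1 higher member after mock siRNA, beside 10 lower of 17 tested. No difference between arrays was tested.

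**Figure D3:**
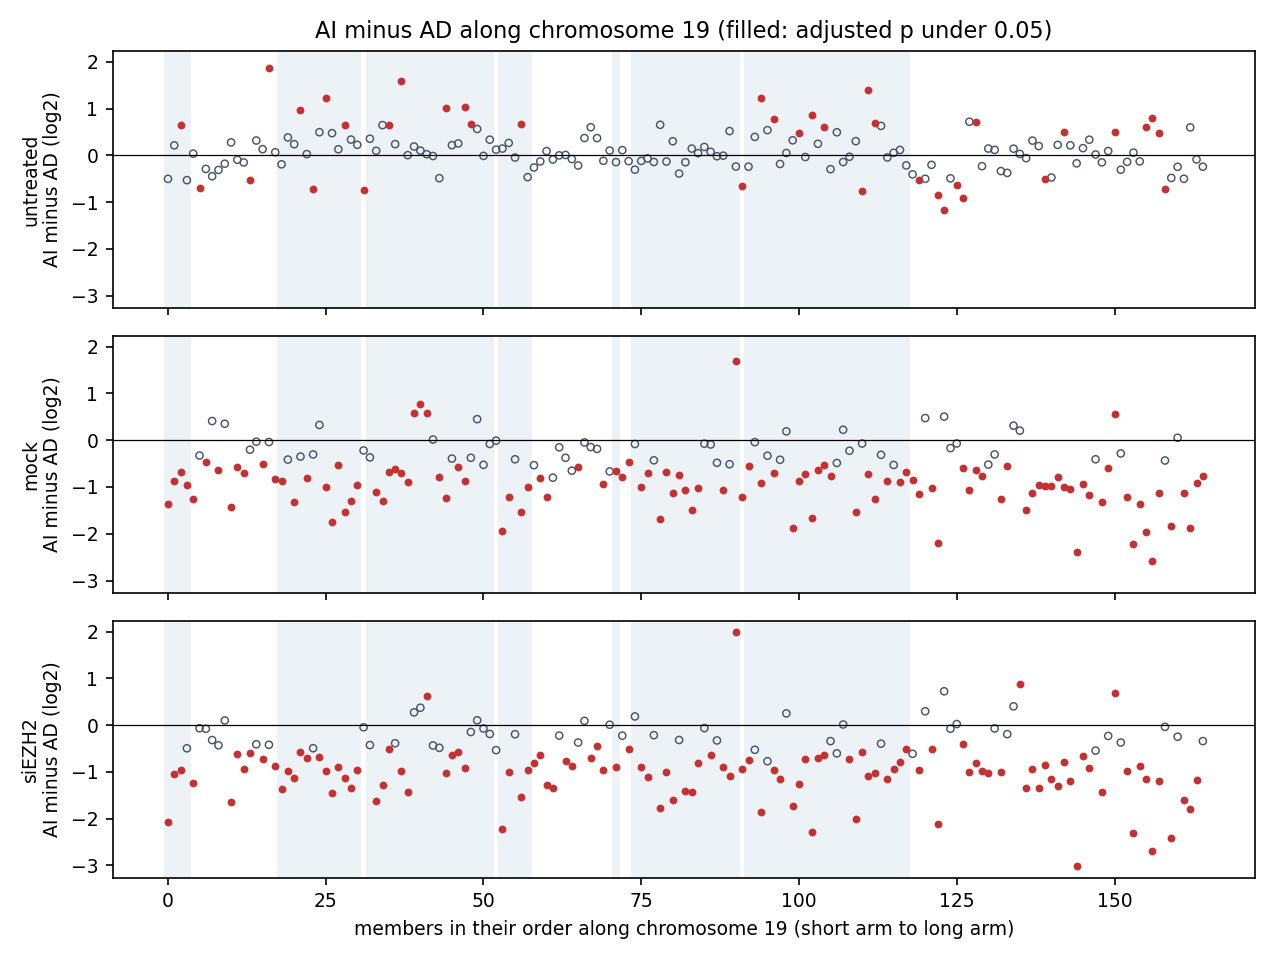
AI minus AD difference of each tested member, log2(RPKM + 0.5), in its order along chromosome 19, for untreated, mock and siEZH2 libraries; filled points were called and shading alternates between arrays. In the 2 transfected panels most points lie below 0 along the whole chromosome, and in the untreated panel they lie around 0.

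Features of the genes went only weakly with the mock difference. The 55 tested members with the shortest spans (median 10.9 kb) had a median of -0.87, the middle 55 (22.1 kb) -0.74 and the 55 with the longest (39.4 kb) -0.53. Ordered by mean level, the medians were -0.70, -0.63 and -0.73. The 49 members with CCGGAAG in the promoter had a median of -0.67, with 30 lower and 3 higher, and the 101 without it -0.69, with 64 lower and 2 higher. Of the 5 promoters shown above, the motif is in ZNF274, ZNF256 and ZNF586 and thus in members of both directions.

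Some members have a described role. ZNF91, a repressor of SVA elements, was at 0.85 and 0.67 RPKM in AD and 1.59 and 1.42 in AI without treatment (0.67, limma adjusted p = 0.04), and the call was lost without each of the 4 libraries (0.57 to 0.78). After mock siRNA ZNF91 was at 1.1 and 1.16 RPKM in AD and at 0.91 and 0.62 in AI, a difference that missed the threshold. ZNF93, a repressor of LINE elements, was at 0.23 and 0.2 RPKM in AD and 0.67 and 0.58 in AI without treatment (0.65, limma adjusted p = 0.0167), a call lost without AD replicate 1 (0.68), AD replicate 2 (0.62) or AI replicate 1 (0.60). After mock siRNA the order was turned, with 0.6 and 0.73 RPKM in AD and 0.17 and 0.28 in AI (-0.69, limma adjusted p = 0.00732). That call was lost without AI mock replicate 1 (-0.58) and under quantile normalization (-0.06). ZNF331, an imprinted gene, was at 3.73 and 3.8 RPKM in mock AD and 2.25 and 2.11 in mock AI (-0.67, limma adjusted p = 0.00114), a call lost under both other scalings (TMM -0.30, quantile -0.02). ZNF132, reported as methylated in prostate cancer, was at 1.69 and 1.81 RPKM in mock AD and 0.18 and 0.05 in mock AI (-1.88). ZNF382, a KRAB gene reported as silenced in tumours, was not tested and stood at 0.42 and 0.5 RPKM in mock AD against 0.03 and 0.01 in mock AI. ZNF582, also reported as methylated in tumours, was lower in mock AI (-1.06, limma adjusted p = 0.00862), a call lost without AD mock replicate 1 (-0.84) or AI mock replicate 2 (-0.89) and under quantile normalization (-0.44). ZNF420 (-0.65), ZNF568 (-0.38) and ZNF675 (0.45) missed the threshold there. ZNF536, a brain regulator, reached at most 0.29 RPKM in any library.

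The silencing machinery that KRAB proteins use was read from a list of 20 genes. In untreated cells limma called 6 as higher and 4 as lower in AI, against 34.6% of all genes called in either direction. With only the untreated groups in the fit it called 0 of the 20 (6 at an unadjusted p under 0.05), and under TMM scaling 3 were higher and 4 lower. In mock AI against mock AD 1 was higher and 13 lower (median -0.80), against 55.7% of all genes called, 43.5% lower and 12.2% higher. Under TMM 3 were higher and 11 lower. Between the siEZH2 libraries of the lines 14 were lower in AI and none higher, against 57.7% of all genes called, 47.1% lower and 10.6% higher. TRIM28, the KRAB corepressor, was at 142.58 and 144.16 RPKM in mock AD and at 125.9 and 112.62 in mock AI (-0.27, limma adjusted p = 0.0934), not called and with the sign set by the scaling. Its difference was 0.16 under TMM (0.268), -0.40 under quantile normalization (0.00885) and -0.43 when rescaled without mitochondrially encoded genes (0.00541), each value in brackets being limma's adjusted p. With only the mock groups in the fit the -0.27 was called (limma adjusted p = 0.017). SETDB1, which methylates H3K9, was at 17.48 and 19.44 RPKM in AD and 13.25 and 12.87 in AI without treatment. After mock siRNA SETDB1 was at 17.38 and 17.64 RPKM in AD and 6.28 and 6.05 in AI (-1.43, SE 0.110, limma adjusted p = 5.801e-06), and lower under TMM (-1.02) and quantile normalization (-0.97) as well. The maintenance methyltransferase DNMT1 (-1.21), its partner UHRF1 (-1.44) and MPHOSPH8 of the HUSH complex (-1.07) were also lower in mock AI. The 1 higher gene was CBX3, at 15.29 and 19.91 RPKM in mock AD and 31.14 and 30.07 in mock AI (0.79, limma adjusted p = 0.0413). CBX1 (0.01) and ATRX (-0.10) were among the genes not called, so the list was not lowered as a whole. Within the list no gene was called between siEZH2 and mock siRNA in either line.

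In RIP, 214 members were listed and 175 had 0.5 RPKM or more in at least 2 of the 8 libraries. In each of the 4 RIP comparisons limma called no member and 0% of the 13667 genes tested. An unadjusted p under 0.05 was found for 0 members and 10.1% of all genes for EZH2 against IgG in AD, and for 11 members (6.29%) and 21.4% of all genes in AI. It was found for 4 members (2.29%) and 3.19% of all genes for the difference between the lines, and for 0 members and 1.7% of all genes for EZH2 RIP of AI against AD. The median of EZH2 against IgG was 0.04 in AD, against 0.43 for all genes, and 0.56 in AI, against 0.88. IgG libraries were too shallow for low genes, with 95, 19, 63 and 141 members at 0, and AI IgG replicate 2 counted 1 read on 4000 bases as 3.07 RPKM. Without AI IgG replicate 1 that library, at 0.0814 M reads, is the only AI control, so calls of that fit are not taken as EZH2 binding. ZNF121 was at 10.49 and 11.13 RPKM with EZH2 antibody in AD and at 10.82 and 13.01 with IgG, so the groups overlapped. ZNF331 was at 7.98 and 8.63 RPKM with EZH2 antibody and 2.35 and 5.85 with IgG in AD, and at 6.78 and 7.41 against 1.43 and 4.3 in AI. Its groups did not overlap in either line, and neither difference passed the test. ZNF573 had the largest rise over IgG in AI (2.57, SE 0.743, limma adjusted p = 0.121) and ZNF682 in AD (1.53, limma adjusted p = 0.59).

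H3K27me3 peaks over the members were few. A peak touched the span of 8 and 17 members (3.67% and 7.8%) in the AD samples and of 12 and 14 (5.5% and 6.42%) in the AI samples, against 18.7% to 25.6% of other protein-coding genes. The other protein-coding genes of chromosome 19 had 16% to 22.8% and zinc finger genes elsewhere 9.66% to 13%. Median spans were 23.6 kb for members and 30.2 kb for other protein-coding genes, so span length differs somewhat. In both AD samples 7 members had a peak, against 15.3% of all protein-coding genes, and in both AI samples 6, against 17.3%. Of the 218 members, 192 had no peak in any of the 4 samples, and ZNF536, ZNF333 and ZNF558 had one in all 4. These counts depend on how a gene is matched to a peak. Within 1000 bases of the start 1 member (0.459%) had a peak in both AD and 3 (1.38%) in both AI samples. The shares there were 4.84% and 3.99% of other protein-coding genes, and 1.26% and 0.84% of zinc finger genes elsewhere. Only 192 members have a listed start, and genes without one count as having no peak there. With 5000 bases on each side 12 (5.5%) and 16 (7.34%) members had a peak, against 17.6% and 21.2% of other protein-coding genes.

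ZNF536 (chr19:30225592-30713586) was covered over 50.1% and 55.8% of its span in AD and 39.6% and 28.6% in AI, the highest mean coverage of any member. ZNF579 followed by mean coverage but was marked in AI replicate 2 alone, over 60.1% of its span, and ZNF574 came next, with 0% and 14.6% in AD and 15.9% and 14.7% in AI. ZNF114 was the member with a peak in both AD and no AI sample (13.2% and 20.4%), against 0.562% of all protein-coding genes. ZNF135 (26.6% and 16.3%) and ZNF560 (5.81% and 2.86%) had one in both AI and no AD sample, against 2.06%. With a score of at least 100 neither pattern had a member (0 and 0), against 0.508% and 2.24% of other protein-coding genes. With spans extended by 5000 bases 0 members had the AD pattern and 4 the AI pattern, against 0.557% and 2.93%. Without treatment ZNF135 was at 0.08 and 0.15 RPKM in AD and 0.07 and 0.11 in AI, so its groups overlapped at levels of few reads. ZNF135 was at 0.39 and 0.37 RPKM in mock AD, 0 and 0.06 in mock AI, 0.33 and 0.4 in AD siEZH2 and 0 and 0.04 in AI siEZH2. The transfected groups did not overlap, but ZNF135 was under the filter and was not tested. ZNF274, ZNF302, ZNF416 and ZNF296, named above for the transfected comparisons, had no H3K27me3 peak in any of the 4 samples, as was so for 192 of the 218 members. The ChIP titles name no transfection, so the mark in transfected cells was not measured. EZH2 peaks touched 75 and 16 members in AD (34.4% and 7.34%) and 17 in AI (7.8%), against 52.2%, 25.2% and 23.2% of other protein-coding genes. The AD lists held 53911 and 12399 peaks and the AI list 11933, which moves with these counts. Both AD samples shared a peak at 13 members, against 20.6% of all protein-coding genes, and 17 members had one in the AI sample, against 23%. With a score of at least 100 none of the 13 remained, and the share among other protein-coding genes was 0.52%.

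**Figure D4:**
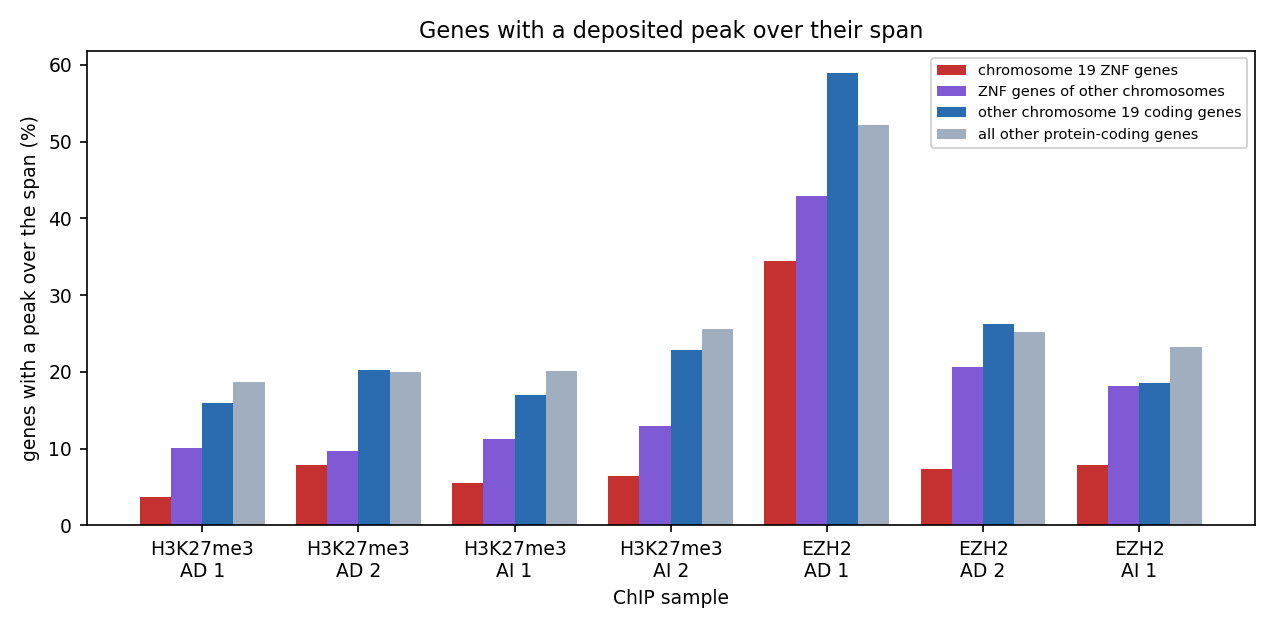
Percent of genes with at least 1 deposited peak over the gene span in each of the 7 ChIP samples, for the zinc finger genes of chromosome 19, zinc finger genes of other chromosomes, other protein-coding genes of chromosome 19 and other protein-coding genes. The zinc finger genes of chromosome 19 have the lowest share in each H3K27me3 sample.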

How the data were processed

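RNA was measured in 12 RNA-seq and 8 RIP libraries, and chromatin in 7 ChIP samples. The authors deposited RPKM values with 2 decimals for RNA-seq and RIP. Per the submitters' processing notes cutadapt, TopHat2, Bowtie2 and edgeR and the build GRCh38 were used, without versions. The deposited peak lists give each peak a score, which is the authors' own value, and 1 list comes from each ChIP sample. How reads were counted, by which annotation and with what strand setting, is not given in the sources used here.

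Groups came from the sample titles. RPKM is no count, so no count model was run although the design had allowed for one. The test was limma 3.58.1 (R 4.3.3) on log2(RPKM + 0.5), fitted to all 12 RNA-seq libraries or all 8 RIP libraries with a coefficient for each group, for genes at 0.5 RPKM or more in at least 2 libraries. P-values were adjusted by Benjamini-Hochberg over all genes tested, with a threshold of 0.05. The fit was also run on simulated data with a limited set of genes changed in mock AI. That setting lacks the broad shift seen after mock siRNA, so the run is not used as support. Depth was estimated from steps between low values and is approximate. Gene spans and promoters came from RefSeq (GRCh38.p14), and a peak was matched to a gene by any overlap with its span. TMM factors were computed on the RPKM values, and the other scalings were quantile normalization and a fixed sum without mitochondrially encoded genes. Further alternatives were other pseudocounts, filters, libraries in the fit, a replicate block and leaving out each library.

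The members and gene lists were chosen with earlier results of these data known. Named members were, per comparison, the 8 largest rises and falls among those called with a mean of at least 1 RPKM and separate groups. In RIP the 4 largest changes in each direction were taken, since none was called. Others named were the 6 most abundant, the 6 most variable, those with line-specific or the widest H3K27me3 peaks, and members with a described role. ZNF154 and ZNF671 are not analysed here.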

Additional observations from a re-analysis of the deposited data

Results flagged for a closer look

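The AI against AD difference was not the same in untreated and mock-transfected cells by a test of the change itself (limma on all 12 RNA-seq libraries). It was called for 80 members in the direction of lower in mock AI and for 4 in the other direction. Among members that are named in the report and were called in both comparisons, ZNF274 changed by -3.40, ZNF329 by -2.57, ZNF610 by -2.51 and ZNF30 by -2.21. ZNF613 changed by -2.15, ZNF415 by -2.14, ZNF614 by -1.48 and ZNF57 by -1.33. These 8 were chosen because they were called higher in untreated AI and lower in mock AI. The change is the difference of those same estimates, so its test adds no separate support for them. The untreated and transfected libraries differ in depth (17.4 to 57.8 against 7.54 to 12.8 M reads), and the part of that in the change was not tested.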

How the results depend on the processing

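Of 1183 alternative values for 90 results on single members, 1035 kept direction and side of the threshold, 146 lost the call and 2 reversed, both under quantile normalization of siEZH2 AI against AD (ZNF331 at 0.22, ZNF93 at 0.15). The causes were not tested. Counts of called members moved with the scaling and, in untreated AI against AD, with the libraries in the fit. Shares of all genes called under these settings are not given, so the counts below do not compare members with all genes. The scaling under TMM and quantile normalization centres the median of all genes near 0. Under quantile normalization, higher and lower counts were 21 and 35 for mock AI against AD, 22 and 33 for siEZH2 AI against AD, 11 and 20 for mock against untreated in AD, 28 and 53 in AI, 20 and 31 for the change of the AI against AD difference, and 0 lower for siEZH2 in AI. Under TMM they were 14 and 19 for mock against untreated in AD and 15 and 47 for the change, with 9 higher in mock, 11 in siEZH2 and 12 in untreated AI, and 0 lower for siEZH2 in AI. Rescaling without mitochondrially encoded genes gave 24 and 14 for mock against untreated in AD, 6 higher in AI, and 2 higher for the change. With only the groups compared in the fit, counts were 8 and 1 for untreated AI against AD, 28 and 4 for mock against untreated in AD, and 1 and 2 for siEZH2 in AI. Without a filter 7 were lower in untreated AI and 2 higher for the change, and with a filter of 1 RPKM 3 were higher in mock AI and 1 after siEZH2 in AI. A pseudocount of 0.1 gave 1 higher and 4 lower after siEZH2 in AI.

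Replicate numbers were not taken as pairs, since not every pair of same-numbered libraries had deviations correlated over 0.1. The correlations ran from -0.0044 to 0.701 in 15 RNA-seq pairs, 3 over 0.1, and from 0.0972 to 0.713 in 6 RIP pairs, 5 over 0.1. As a block the numbers gave 1 higher and 2 lower for siEZH2 in AI and 1 higher for EZH2 RIP against IgG in AI, and moved no other count by over 1.5 times.

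Leaving out 1 library gave 11 to 20 higher and 5 to 10 lower in untreated AI, 2 to 4 and 77 to 89 in mock AI, 3 and 90 to 96 in siEZH2 AI, 19 to 38 and 2 to 7 for mock against untreated in AD, 7 to 9 and 66 to 75 in AI, 2 to 5 and 59 to 76 for the change, 0 lower for siEZH2 in AI, and 0 to 4 and 0 to 1 for EZH2 RIP against IgG in AI.

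For H3K27me3 peaks in both AD, both AI, AD alone and AI alone, a peak at the start gave 1, 3, 0 and 2 members, spans extended by 5000 bases 12, 16, 0 and 4, and a score of at least 100 2, 3, 0 and 0. Coverage of at least 50% of the span gave 1 for both AD, 0 for both AI and 0 for AI alone. EZH2 peaks in both AD samples and the AI sample fell to 0 and 1 at the start and to 0 and 0 by score or by coverage. IgG depth limits the RIP comparisons. Calls without AI IgG replicate 1 rest on replicate 2 as the only AI control, at 0.0814 M reads, and are not taken as EZH2 binding.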
